A study of Mus musculus with 2 samples.

Results

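A gap, as described here, is the stretch between 2 strongly called nucleosomes that follow each other along a chromosome with no call between them. The members are pairs of successive autosomal calls in the ethanol list in which both calls scored 200 or more and the call centres lay 260 to 400 bp apart. There were 4624 such gaps among 1289675 pairs of successive autosomal calls of that list. The same rule applied to the tamoxifen list gave 4558 gaps among 1413163 pairs, and these serve as the reverse comparison. The gaps were chosen by the authors' scores and positions within 1 list, so flank scores, flank distances and the missing call within that list are a description of the rule. What the other list holds at the same place was not used by the rule.

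The study mapped nucleosomes with MNase-seq in embryonic stem (ES) cells of the mouse, of genotype Brg1fl/fl that carry an Actin-CreER transgene, that is, a Cre recombinase driven by an actin promoter and released by tamoxifen. The ethanol group received the vehicle for 24 hours, and the tamoxifen group received 0.8 µM tamoxifen for the same time, each followed by 48 hours in fresh medium. Both groups carry the floxed alleles and the Cre transgene, so loss of Brg1, the drug itself and Cre activity cannot be told apart. Each group had 1 library, so no test was run. Intervals are 95% intervals of counting error alone, and how far separate cultures would differ is unknown. Nucleosome lists hold no expression values, so neither the loss of Brg1 nor the cell type was checked.

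Micrococcal nuclease cuts the linker DNA between nucleosomes, and the DNA of the mononucleosome band marks where nucleosomes sat. Brg1 is the ATPase subunit of esBAF, the SWI/SNF-family complex of ES cells, and remodelers of this family slide or evict nucleosomes and thereby open DNA to binding proteins. A distance between neighbouring nucleosomes well above the usual repeat leaves room for a bound factor, for open DNA or for a further nucleosome that is too weakly placed to be called.

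The number of gaps was nearly the same in the 2 libraries. The ethanol list had 4624 gaps (Poisson interval 4492 to 4759) and the tamoxifen list 4558 (4427 to 4692). The ratio of tamoxifen over ethanol was 0.986 (exact interval 0.946 to 1.027). The autosomal calls themselves stood at a ratio of 1.096, the strong calls at 1.044 and pairs of any score 260 to 400 bp apart at 1.140. Gaps therefore made up a smaller share of the tamoxifen list, with 35.09 per 1000 strong calls against 37.15 with ethanol. Strong calls numbered 124463 with ethanol and 129892 with tamoxifen, out of 1289694 and 1413182 autosomal calls. The read depth behind the lists is unknown.

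The stretch free of called nucleosomes was wide. Measured from the edge of one call to the edge of the next, its median was 210 bp in each list. It ran from 60 to 320 bp with ethanol and from 70 to 320 bp with tamoxifen. Autosomal calls had a median width of 100 bp in each list. The edge of a call need not be the edge of a nucleosome, so less DNA than this may have been free. The lower of the 2 flank scores had a median of 269.6 within the ethanol list and of 267.6 within the tamoxifen list, and 232 and 251 gaps had a flank at the maximum score of 3250. Near the limits of the rule, the ethanol list held 403 strong pairs 250 or 255 bp apart against 373 at 260 or 265 bp, and 209 at 395 or 400 bp against 193 at 405 or 410 bp. With ethanol, 670 pairs at gap distances had a lower score of 190 to under 200, just outside the rule, and 479 had one of 200 to under 210. With tamoxifen these numbers were 718 and 515.

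Short gaps were more numerous with ethanol and long gaps more numerous with tamoxifen. From 260 to 275 bp there were 837 ethanol gaps (Poisson interval 781 to 896) and 760 tamoxifen gaps (707 to 816). From 280 to 295 bp the counts were 831 (775 to 889) and 731 (679 to 786). The order was the other way at 340 to 355 bp, with 568 (522 to 617) and 615 (567 to 666), and at 380 to 400 bp, with 577 (531 to 626) and 656 (607 to 708). Shorter and longer gaps were then compared, a comparison chosen after the values had been seen. Divided at 330 bp, the ratio of tamoxifen over ethanol was 0.910 (exact interval 0.860 to 0.962) for shorter gaps and 1.086 (1.022 to 1.155) for longer ones. Longer gaps were 43.01% of the ethanol gaps (Wilson interval 41.59 to 44.45%) and 47.41% of the tamoxifen gaps (45.96 to 48.86%). On 14 of the 19 autosomes tamoxifen had the higher share of longer gaps. Pairs that are not gaps, at the same distances but with at least 1 weaker call, moved in the same direction, from 53.82% to 55.92%. This shift rests on the same calls as the spacing of all nucleosomes in these libraries and is not independent of it.

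**Figure D1:**
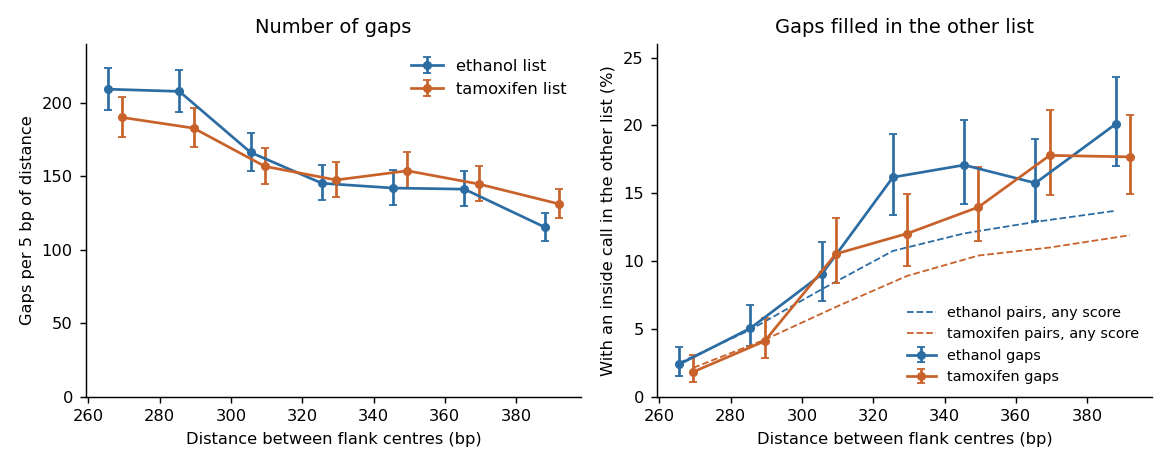
Left, gaps per 5 bp of distance between flank centres (y axis) in 7 distance classes (x axis, bp), with Poisson intervals as bars; ethanol starts higher, at 837 gaps in the shortest class against 760, and ends lower, at 577 against 656. Right, percentage of gaps with a call of the other list inside, with Wilson intervals as bars, beside all pairs of any score at the same distance as dashed lines; the share climbs from 2.39% to 20.10% for ethanol gaps and from 1.84% to 17.68% for tamoxifen gaps.

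Most gaps stayed free of a call in the other library. An inside call was a call of the other list over 100 bp from both flank centres. Whether it and both flanks sat on the same DNA molecules was not tested. Such a call was present in 518 of the 4624 ethanol gaps, 11.20% (Wilson interval 10.33 to 12.14%), after tamoxifen. In the reverse comparison the ethanol list had an inside call in 486 of the 4558 tamoxifen gaps, 10.66% (9.80 to 11.59%). The 2 intervals overlapped, so a gap of either list was filled in the other about equally often. The background over pairs of any score 260 to 400 bp apart was 9.47% for 149198 ethanol pairs and 8.23% for 170073 tamoxifen pairs. Over all autosomes the share of filled gaps was above its background in both directions, which did not hold in the most crowded stretches described further on.

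How often a gap was filled rose with its length. By the definition of an inside call, a longer gap also has more room for one. Of the ethanol gaps of 260 to 275 bp, 2.39% (1.55 to 3.66%) had an inside call after tamoxifen, and of those of 380 to 400 bp, 20.10% (17.04 to 23.57%). For tamoxifen gaps the shares were 1.84% (1.10 to 3.07%) and 17.68% (14.95 to 20.79%). In the 2 shortest classes the shares were close to those of pairs of any score, for example 5.05% against 4.94% at 280 to 295 bp with ethanol. In the longer classes the shares of gaps were higher, though for ethanol the interval of the gaps included the value of all pairs at 300 to 315 bp. At 320 to 335 bp, 16.18% (13.41 to 19.39%) of ethanol gaps were filled against 10.75% (10.32 to 11.19%) of the pairs of any score, and at 360 to 375 bp 17.79% (14.89 to 21.11%) of tamoxifen gaps against 11.0% (10.64 to 11.38%).

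The calls that filled gaps scored well above most calls of their list, and about as many were under 200 as over it at ethanol gaps. Within the tamoxifen list, the inside calls at ethanol gaps had a median score of 200.6, and 90.8% of the autosomal calls of that list scored lower. At tamoxifen gaps the inside calls of the ethanol list had a median of 172.2, with 86.0% of that list below it. A score of 200 or more was reached by 50.0% (45.71 to 54.29%) of the inside calls at ethanol gaps and by 43.42% (39.08 to 47.86%) at tamoxifen gaps. At pairs that are not gaps the corresponding shares were 4.29% and 4.39%. Strong pairs at gap distances with a call of their own list midway are the closer comparison. Of those midway calls, 68.72% (66.24 to 71.10%) with ethanol and 70.91% (68.61 to 73.11%) with tamoxifen scored 200 or more. Calls that filled gaps thus reached 200 less often than midway calls between strong flanks of the same list. No gap had more than 1 inside call in the other list.

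The place of inside calls is in part fixed by their definition, since a call over 100 bp from both flanks of a gap of 400 bp or less is under 100 bp from its midpoint. Their median distance from the midpoint was 20 bp at ethanol gaps and 21.25 bp at tamoxifen gaps, and 50.97% and 50.0% lay within 20 bp of it. At pairs that are not gaps the median distances were 22.5 and 25 bp, so gaps differed little from them. All calls between the flanks were therefore also counted, without that limit. Among gaps of 360 to 400 bp, where a nucleosome in the middle would stand about one repeat from each flank, the calls of the other list formed a separate middle peak. The 5% of the gap just before the midpoint held 3.94 tamoxifen calls per 100 ethanol gaps, against 0.88 at 30 to 35% of the way across. For tamoxifen gaps the ethanol list had 3.32 calls per 100 gaps just before the midpoint and 0.97 at 30 to 35%. Pairs that are not gaps also had a middle peak, with fewer calls. Just before the midpoint they had 2.32 and 2.08 calls per 100 pairs, and just past it, at their peak, 2.71 and 2.20. At 30 to 35% they had 0.74 and 0.66, so their trough was lower as well.

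**Figure D2:**
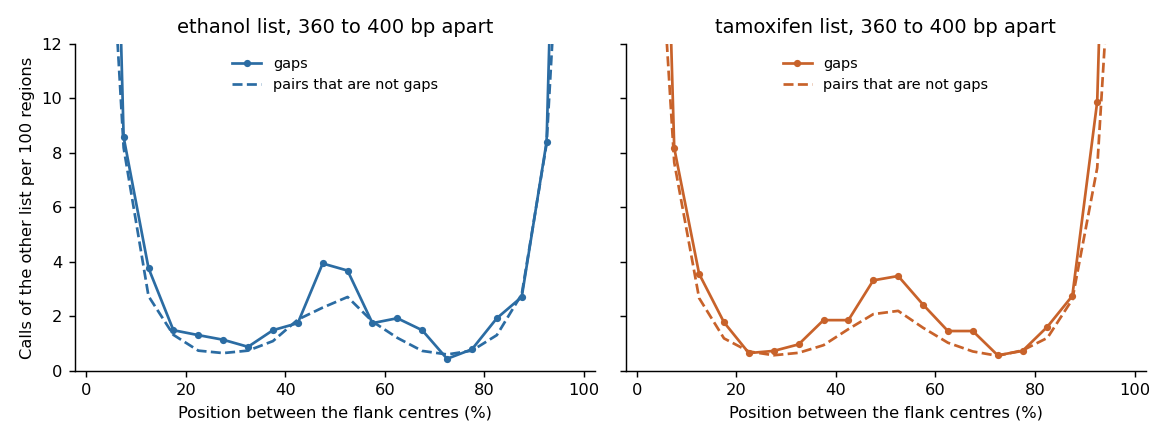
Calls of the other list per 100 regions (y axis, shown up to 12; the outermost 5% on each side exceed this) by position between the flank centres (x axis, % of the distance), for regions 360 to 400 bp long; solid lines are gaps and dashed lines pairs that are not gaps. Calls gather at the flanks and in a smaller peak at the middle, where ethanol gaps reach 3.94 and tamoxifen gaps 3.48.

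The same question was asked from the opposite side, with strong pairs that did have a call midway. Strong pairs 260 to 400 bp apart with 1 call of their own list between them, over 100 bp from both, numbered 1397 with ethanol and 1564 with tamoxifen, a ratio of 1.120 (exact interval 1.041 to 1.204). Gaps therefore made up 76.80% (Wilson interval 75.71 to 77.85%) of such strong pairs with ethanol and 74.45% (73.35 to 75.53%) with tamoxifen. Limited to 340 to 400 bp, the shares without a call midway were 60.32% (58.50 to 62.10%) and 59.49% (57.75 to 61.20%), and their intervals overlapped. Where both flanks of a pair with a midway call were kept, the other list had no call between the partners at 162 of 804 ethanol pairs, 20.15% (17.52 to 23.06%). It had none at 199 of 868 tamoxifen pairs, 22.93% (20.25 to 25.84%). The 2 intervals overlapped, so middle calls of either list were missing from the other about equally often. How often midway calls between pairs of any score were missing is not given here, so these shares stand without a background.

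The flanking nucleosomes were well kept. A flank counted as kept when the other list had a call centre within 20 bp of its own. Both flanks were kept at 2531 ethanol gaps, 54.74% (53.30 to 56.17%), 1 flank at 36.83% and none at 8.43%. At tamoxifen gaps both flanks were kept at 2429, 53.29% (51.84 to 54.74%), 1 at 37.71% and none at 9.0%. Over pairs of any score the background was 21.7% for ethanol and 18.8% for tamoxifen. These shares go with the strong scores by which flanks were chosen. Counted one by one, 72.98% (72.04 to 73.90%) of ethanol flanks had a tamoxifen call within 20 bp, against 71.10% (70.84 to 71.37%) of strong ethanol calls that flank no gap. For tamoxifen flanks the values were 71.95% (70.99 to 72.89%) and 70.94% (70.68 to 71.19%), so flanks differed little from other strong nucleosomes in how often they were kept.

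The strength of kept flanks differed more. The partner of a kept ethanol flank scored 200 or more in the tamoxifen list in 75.27% of cases (74.20 to 76.31%), against 59.45% (59.11 to 59.78%) for kept strong calls that flank no gap. In the reverse direction the shares were 75.48% (74.39 to 76.53%) and 57.00% (56.67 to 57.33%). Flanks and other strong calls were not matched for the score in their own list. With ethanol, 232 gaps had a flank at the maximum score, which 645 of the 1289694 autosomal calls reached. How far the own score goes with this difference was not tested. With a lower flank score of 500 or more, both flanks were kept at 68.50% (65.16 to 71.66%) of the ethanol gaps, and with one of 200 to under 300 at 49.91% (48.07 to 51.76%). Where 1 flank alone was kept, it was the one with the higher score in 57.90% (55.52 to 60.24%) of the ethanol gaps and 53.96% (51.58 to 56.32%) of the tamoxifen gaps.

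Followed as whole units, 1355 gaps were found in both lists, with both flanks within 20 bp and the rule met in each. They were 29.30% of the ethanol gaps and 29.73% of the tamoxifen gaps. How many pairs of any score recurred as successive pairs is not given here. Shares of gaps in both lists, with weaker partners or with a changed distance therefore stand without a background. Over pairs of any score, whatever their partners scored, both flanks were kept at 21.7% for ethanol and 18.8% for tamoxifen. Another 834 ethanol gaps (18.04%) had both flanks kept and no call between them, but at least 1 partner scored under 200 after tamoxifen. For tamoxifen gaps this number was 753 (16.52%). Gaps with both flanks kept and a new call inside numbered 232 with ethanol (5.02%) and 215 with tamoxifen (4.72%). Among gaps with both flanks kept these were 9.17% (8.10 to 10.35%) and 8.85% (7.79 to 10.05%), near the 8.12% (7.81 to 8.43%) and 7.41% (7.12 to 7.72%) of pairs that are not gaps with both flanks kept. Gaps with kept strong flanks whose distance left the 260 to 400 bp range numbered 102 and 100. The remaining gaps had lost the call at 1 or both flank positions in the other list, apart from 8 and 6 with another call between kept flanks.

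The flanks moved neither closer nor farther on balance. Both flanks had a partner within 80 bp at 4079 ethanol gaps (88.21%) and 3967 tamoxifen gaps (87.03%). After tamoxifen the partners of the ethanol flanks were closer by over 20 bp at 772 gaps, 18.93% (17.75 to 20.16%), and farther by over 20 bp at 766, 18.78% (17.61 to 20.01%). The background over ethanol pairs of any score was 24.4% closer and 25.1% farther. In the reverse comparison 765 gaps, 19.28% (18.09 to 20.54%), were closer in the ethanol list and 738, 18.60% (17.42 to 19.84%), farther, with a background of 24.6% and 25%. The mean change of distance was -0.32 bp (SD 31.72 bp over gaps) from ethanol to tamoxifen and -0.21 bp (SD 31.65 bp) from tamoxifen to ethanol, and the median change was 0 bp each way. The distance was within 20 bp of its own value at 62.29% and 62.11% of these gaps. Call edges lie on a 10 bp grid and centres therefore on a 5 bp grid, so smaller changes cannot be resolved.

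**Figure D3:**
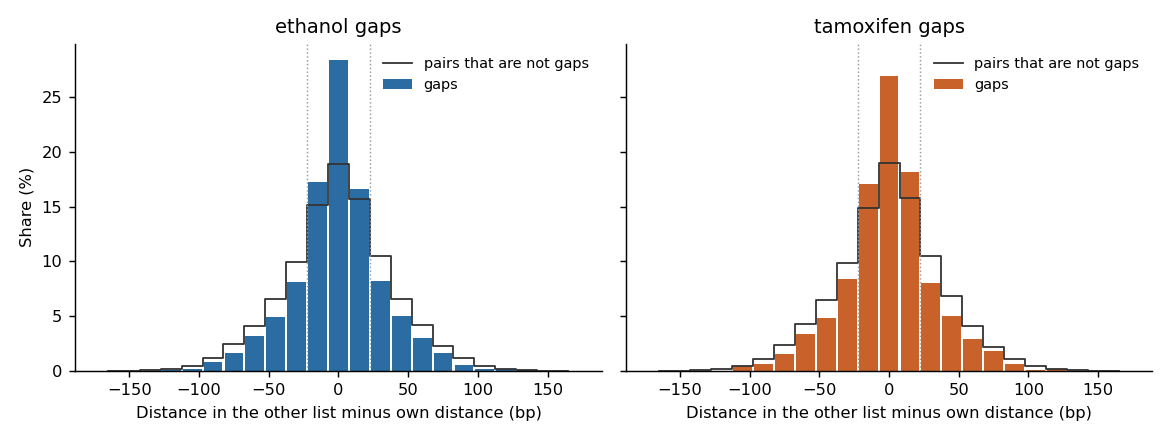
Change of the distance between the flanks (x axis, distance in the other list minus own distance, bp, in bins of 15 bp) as a share of regions with a partner within 80 bp of each flank (y axis, %); bars are gaps, the black outline pairs that are not gaps, and dotted lines bound changes of up to 20 bp. Both distributions centre on 0, with 18.93% of ethanol gaps closer and 18.78% farther beyond the lines.

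The balance of closer and farther varied among distance classes. The shares by class are given without intervals and without those of pairs of any score in the same class. Closer was the more frequent in both lists from 260 to 295 bp, and farther from 320 to 355 bp. At 300 to 315 bp and in the classes from 360 to 400 bp the 2 lists went opposite ways. Over the 7 classes, 14.97 to 22.56% of ethanol gaps were closer and 14.07 to 24.35% farther, and 16.76 to 21.05% of tamoxifen gaps were closer and 16.25 to 21.77% farther. In the shortest class, 260 to 275 bp, closer was more frequent in both lists, at 20.65% against 17.41% for ethanol gaps and 21.05% against 16.25% for tamoxifen gaps. The ethanol gaps had their extremes at 280 to 295 bp, with 22.56% closer and 14.07% farther, and at 320 to 335 bp, with 14.97% and 24.35%. Tamoxifen gaps had 20.80% and 17.44%, and 20.23% and 21.77%, in those classes. Neither a dependence on distance nor the difference between directions was tested.

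Calls outward from gaps were spaced by a repeat, a feature that the rule did not use and that pairs that are not gaps shared. Outward from the ethanol flanks, calls of the same list were most frequent at 180 to 195 bp, with 80.8 calls per 1000 flanks. They fell to 33.5 at 280 to 295 bp and rose again to 51.9 at 360 to 375 bp. The tamoxifen list had the same pattern beside the ethanol gaps, with 80.9, 32.2 and 52.7 calls per 1000 flanks in those bins. Outside tamoxifen gaps the first peak reached 81.0 in the tamoxifen list and 73.4 in the ethanol list. Calls were denser near gaps as a whole, with a mean of 37.4 per 1000 flanks beyond 500 bp for ethanol gaps against 24.3 for pairs that are not gaps. Set against that mean, the first peak stood at 2.16 times for ethanol gaps and 1.91 times for the pairs that are not gaps, and for the tamoxifen list at 2.05 and 1.89 times. Set against the trough after it, the first peak was nearly as high at both, at 2.41 times for ethanol gaps and 2.33 times for pairs that are not gaps, and at 2.5 and 2.45 times with tamoxifen. The spacing beside gaps was thus little sharper than beside weaker pairs.

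**Figure D4:**
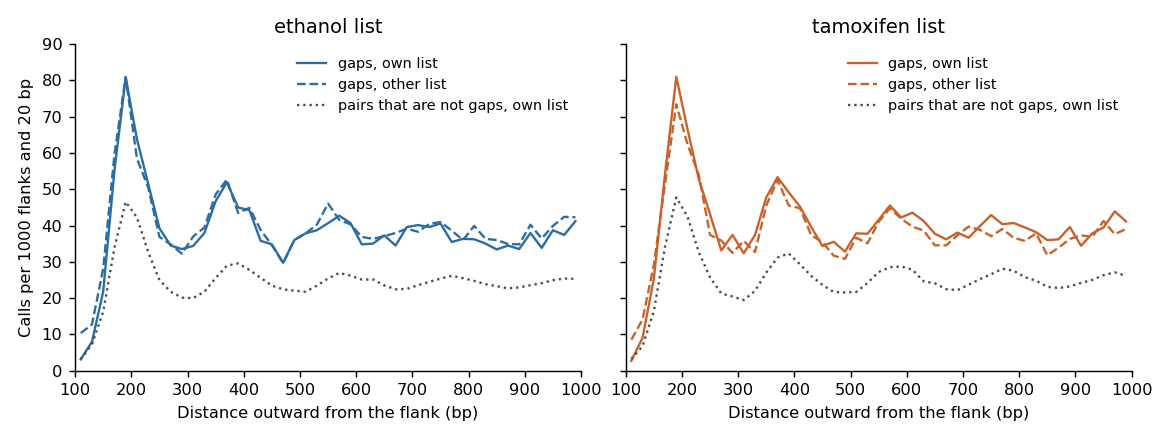
Calls per 1000 flanks in bins of 20 bp (y axis) by distance outward from the flank, away from the gap (x axis, bp), for gaps in their own list (solid), gaps in the other list (dashed) and pairs that are not gaps (dotted). A first peak at 180 to 195 bp and a second at 360 to 375 bp stand out at gaps in both lists, at 80.8 and 51.9 calls for ethanol gaps in their own list.

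The next nucleosome outward was within reach of one repeat more often at gaps than at weaker pairs. It lay 140 to 240 bp away for 28.37% (27.46 to 29.29%) of ethanol flanks and 29.19% (28.27 to 30.13%) of tamoxifen flanks, against 17.81% and 18.05% at pairs that are not gaps. Strong pairs that were themselves 140 to 240 bp apart had 30.68% (29.94 to 31.43%) and 31.57% (30.84 to 32.30%). Such a neighbour stood on both sides at 8.61% of ethanol gaps and 9.72% of tamoxifen gaps, against 3.88% and 3.93% of the pairs that are not gaps. None of these shares was adjusted for the denser calls near gaps. Beyond 500 bp the ethanol list had 37.4 calls per 1000 flanks at gaps and 24.3 at pairs that are not gaps. The tamoxifen list had 39.5 and 25.3. Gaps also followed each other: 483 ethanol gaps and 478 tamoxifen gaps shared a flank with the gap before them. The flank calls were 114.9 bp wide on average with ethanol (SD 33.7 bp over calls) and 117.2 bp with tamoxifen (SD 34.7 bp), narrower than strong calls that flank no gap, at 120.9 bp (SD 35.0 bp) and 121.8 bp (SD 35.3 bp), though by much less than the spread over calls.

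Gaps were unevenly placed along the genome. Chromosome 8 held 1159 of the ethanol gaps (25.1%) and 1120 of the tamoxifen gaps (24.6%), and chromosome 12 held 557 (12.0%) and 617 (13.5%). These chromosomes also carry more strong calls than the others. Per 1000 strong calls, chromosome 8 had 59.3 ethanol gaps (Poisson interval 56.0 to 62.8) and chromosome 1 had 51.4 (46.1 to 57.1), against a median of 33.3 over the 19 autosomes and a lowest value of 19.5 on chromosome 13. Chromosome 12, at 38.9 (35.8 to 42.3), was closer to the middle. With tamoxifen the order was alike, at 54.6 for chromosome 8, 54.2 for chromosome 1 and 39.4 for chromosome 12, with a median of 28.0. Chromosome 6 was the 1 autosome where the intervals of the 2 lists lay apart, with 172 gaps and 33.1 per 1000 strong calls (28.3 to 38.4) with ethanol and 115 gaps and 21.4 (17.7 to 25.7) with tamoxifen. On chromosome 6 the excess with ethanol was spread out: of 71 windows of 1 Mb with a gap, 45 had more ethanol gaps and 14 more tamoxifen gaps. The share of filled ethanol gaps was above that of filled tamoxifen gaps on 12 autosomes and below it on 7.

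**Figure D5:**
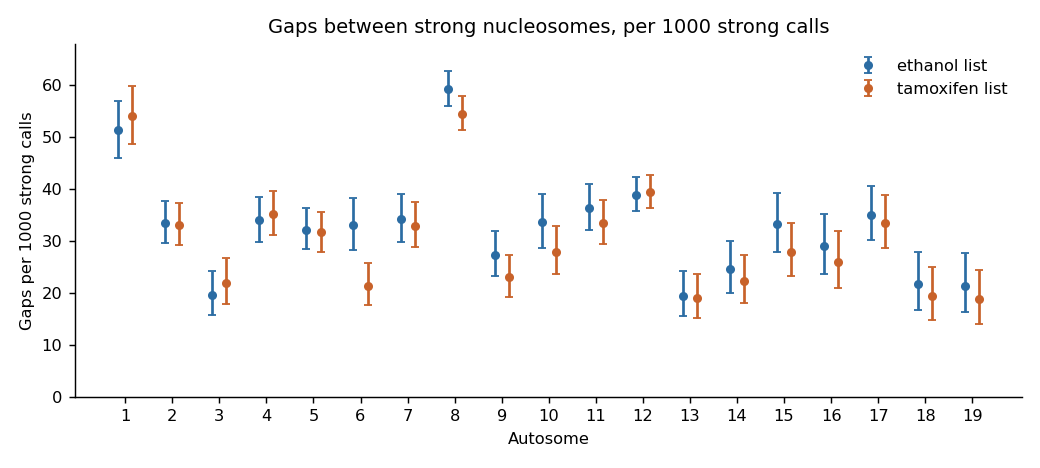
Gaps per 1000 strong calls (y axis) on each of the 19 autosomes (x axis), with Poisson intervals as bars, for the ethanol and tamoxifen lists. Chromosomes 1 and 8 stand above the others in both lists, and chromosome 6 is the place where the 2 intervals lie apart, at 33.1 and 21.4.

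Many gaps were crowded into few places, and in some of these more of them were gaps in both lists. Of 1309 windows of 1 Mb with a gap, 30 held 25 or more in at least 1 list, a limit chosen after the counts had been seen. These windows had 1369 of the ethanol gaps (29.61%) but 9.49% of the strong ethanol calls, and 1392 of the tamoxifen gaps (30.54%) but 9.38% of the strong tamoxifen calls. In them 40.76% (38.19 to 43.38%) of the ethanol gaps were also tamoxifen gaps, against 24.49% (23.04 to 25.99%) elsewhere. The share of ethanol gaps with an inside call was 10.88% (9.34 to 12.64%) in crowded windows and 11.34% (10.29 to 12.47%) elsewhere. For tamoxifen gaps it was 9.55% (8.12 to 11.21%) and 11.15% (10.10 to 12.29%), so the intervals within and outside crowded windows overlapped for each list. The background differed between them. Of pairs that are not gaps, 14.03% (13.31 to 14.77%) were filled in crowded windows and 9.12% (8.96 to 9.27%) elsewhere with ethanol, and 12.64% (11.98 to 13.33%) and 7.90% (7.76 to 8.03%) with tamoxifen. Gaps were thus filled less often than such pairs in crowded windows and more often elsewhere, in both lists. The gaps and pairs were not matched for distance. Over all autosomes 43.01% of the ethanol gaps and 53.82% of the ethanol pairs that are not gaps were 330 bp or longer. How far distance goes with the difference in crowded windows was not tested.

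The most crowded window was chromosome 8 from 19 to 20 Mb on mm9, with 152 ethanol gaps and 155 tamoxifen gaps, of which 98 were the same. It was followed by chromosome 1 from 85 to 86 Mb, with 104 and 142, chromosome 11 from 3 to 4 Mb, with 95 and 83, chromosome 2 from 77 to 78 Mb, with 79 and 88, and chromosome 1 from 87 to 88 Mb, with 71 and 78. On chromosome 11 the gaps of that window began at 3001776, close to where the calls of every autosome begin, and the median of the lower flank score there was 3097.3 with ethanol. The first Mb with calls, from 3 to 4 Mb of each autosome, held 4.43% (3.88 to 5.07%) of the ethanol gaps and 1.37% of the strong ethanol calls. The autosomes shared in this unevenly, since of these 205 gaps chromosome 11 had 95 and chromosome 17 had 24. Of the 30 crowded windows, the 17 on chromosomes 8 and 12 other than the 2 most crowded ones of chromosome 8 were set apart after their values had been seen. Their gaps had median lower flank scores of 233.4 to 288.8 with ethanol and were spread over 578.4 to 990.5 kb. Of these ethanol gaps 22.5% were also tamoxifen gaps, no more than the 24.49% outside the crowded windows. In the other 13 windows the median lower scores ran from 278.1 to 3097.3 and that share was 54.2%. Whether the sequence of a window occurs in several copies was not tested.

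Single gaps are named by the fixed rule, which ranks them by the lower of the 2 flank scores. All named flanks stood at the maximum of 3250 in their own list, where ties were taken in chromosome order. Apart from those on chromosomes 1 to 4, the named gaps lie at 19 to 20 Mb of chromosome 8 or at 3 to 4 Mb of their chromosome. Positions are call centres on mm9. No genes are given, since the annotation used here is not of mm9.

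Single calls of high score between the flanks led the gaps filled after tamoxifen with both flanks kept. On chromosome 8 the ethanol flanks at 19763071 and 19763421, 350 bp apart, reappeared 5 bp to the right in the tamoxifen list, which had a further call at 19763251 with the maximum score of 3250. The ethanol gap of 330 bp from 19924066 to 19924396 on the same chromosome held a tamoxifen call at 19924251, also at 3250. On chromosome 11 the flanks at 3059391 and 3059676 were at identical places in both lists, and a tamoxifen call at 3059501 with a score of 3132.4 lay 110 bp from the left one. In the opposite direction, tamoxifen gaps were filled in the ethanol list on chromosome 11 between 3027466 and 3027836, by a call at 3027641 with a score of 3197.5. The other pair lay on chromosome 17, where ethanol calls at 3080326 (3250) and 3081751 (3230) stood in tamoxifen gaps from 3080176 to 3080531 and from 3081576 to 3081936. Middle calls of top strength were thus missing from either list in places where the other had them.

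Outside the crowded windows, gaps filled by a strong call with both flanks kept numbered 57 in the ethanol list and 46 in the tamoxifen list. Both flanks were kept at 1722 of the 3255 ethanol gaps and at 1583 of the 3166 tamoxifen gaps outside these windows. How often pairs of any score were filled by a strong call there is not given here, so the 2 counts stand without a background. This selection was made after the values had been seen. The ethanol gap with the strongest flanks among them, on chromosome 12 from 70544031 to 70544331, had flank scores of 2227.5 and 2326. After tamoxifen a call with a score of 1155.1 stood at 70544171, 140 bp from the left flank and 160 bp from the right. The corresponding tamoxifen gap, on chromosome 9 from 99342336 to 99342651 with flank scores of 3250 and 2404.4, held an ethanol call with a score of 1396.8 at 99342491.

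Among gaps that stayed empty with both flanks kept, the strongest ethanol gaps lay on chromosome 1 from 24620121 to 24620456, on chromosome 4 from 118220666 to 118221066 and on chromosome 6 from 3150891 to 3151171. All 6 flanks scored 3250 in both lists. The gap on chromosome 6 had its flanks at identical positions in both lists, 280 bp apart, and is named from the tamoxifen list as well. The other tamoxifen gaps of this kind lay on chromosome 2 from 22444771 to 22445056 and on chromosome 3 from 59849231 to 59849591, and were 10 and 5 bp wider in the ethanol list. In this kind, no call of the other list stood between the flank centres, which left 836 ethanol and 851 tamoxifen gaps. A partner that lay inward of its flank counted as such a call. These numbers therefore leave out other gaps with both flanks kept and no call between the partners. Gaps found in both lists alone, which have no call between the partners, numbered 1355.

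The gaps named for a change of distance were moved by 25 to 50 bp, and several of them are 1 place seen from both lists. On chromosome 9 the ethanol gap from 3010006 to 3010321 measured 315 bp and its tamoxifen partner 285 bp, so that it ranks first among the ethanol gaps that came closer and first among the tamoxifen gaps that were farther in the ethanol list. On chromosome 11 the ethanol gap from 3037576 to 3037941 went from 365 to 335 bp in the same manner. The remaining ethanol gap that came closer, also on chromosome 11 from 3033311 to 3033591, shared the flank at 3033591 with a gap that became farther, from 325 to 350 bp, because the single tamoxifen call at 3033566 lay 25 bp to the left of it. The gap on chromosome 2 from 22444511 to 22444771 widened from 260 to 295 bp, and the gap on chromosome 9 from 3020236 to 3020571 from 335 to 360 bp. Named tamoxifen gaps that were closer in the ethanol list lay on chromosome 8, where 355 bp from 19699336 to 19699691 stood against 310 bp, and 305 bp from 19759821 to 19760126 against 255 bp. On chromosome 9 the tamoxifen gap from 3020236 to 3020596 was the reverse view of the ethanol gap just given, and the one from 3020596 to 3020976 went from 380 to 410 bp.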

How the data were processed

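MNase-seq was done in 1 ethanol and 1 tamoxifen library; per the labels' protocols, libraries were made from mononucleosomal DNA after digestion with 12 U of nuclease. The submitters' processing notes name Bowtie 0.12.9, a read aligner, and the genome build mm9. For each library the authors deposited nucleosome calls with start, end and score. Caller, cutoffs, duplicate handling and what the score measures: not given in the sources used here. Scores ran from 50.1 to 3250 in both lists and were used within a list. Nucleosomes under the caller's cutoff are not listed, so a gap free of calls can still hold one.

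Centres are (start + end)/2. The rules and limits stand in the report where they are used. Ties for the nearest call went to the left one, and partners had to be in order. Named gaps are the 3 with the highest lower flank score, by list, among gaps filled, kept empty, closer and farther. The members, lists and limits were chosen with earlier results of these data known. Shares have Wilson, counts Poisson, and ratios exact binomial intervals; gaps cluster and share flanks, so all are too narrow. The procedure was tested on simulated data. Python 3.11.15 was used with scipy 1.17.1, pandas 2.3.3 and numpy 2.4.6. Sequences of the gaps were not used here, since no genome of mm9 was at hand.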

Additional observations from a re-analysis of the deposited data

Results flagged for a closer look

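The X chromosome, which the rule leaves out, held many gaps for its few calls. By the same rule its ethanol list had 213 gaps, with a Poisson interval of 185.4 to 243.6. Its tamoxifen list had 232, with one of 203.1 to 263.9. That is 127.9 gaps per 1000 strong calls with ethanol and 124.3 with tamoxifen, against 37.15 and 35.09 on the autosomes. They were concentrated in 11 windows of 1 Mb in each list, and windows with 25 or more gaps held 74.2% of the ethanol and 85.8% of the tamoxifen gaps. The window from 166 to 167 Mb had 59 ethanol gaps and 54 tamoxifen gaps.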

How the results depend on the processing

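The ratio of the numbers of gaps, 0.986, moved to 1.086 for distances of 330 to 400 bp. Counts of gaps changed by over 1.5 times with a minimum score of 300 (1805 and 1846), with distances of 330 to 400 bp (1989 and 2161) and without chromosomes 8 and 12 (2908 and 2821), each of which removes gaps by construction. The inside share of ethanol gaps, 11.20%, moved to 17.50% at 330 to 400 bp, 9.60% among calls no weaker than the median, and 13.26% and 9.02% with inside limits of 80 and 120 bp. That of tamoxifen gaps, 10.66%, moved to 16.10%, 9.16%, 12.51% and 8.78% under these and to 9.64% with a minimum score of 300. Both flanks were kept at 54.74% of ethanol gaps, and at 62.27% with a minimum score of 300, 56.60% without chromosomes 8 and 12, 52.54% among calls no weaker than the median, 34.67% and 74.16% with limits of 10 and 40 bp, and 52.90% without the crowded windows, an alternative chosen after seeing the data. For tamoxifen gaps 53.29% became 60.24% with a minimum score of 300, 51.28% among calls no weaker than the median, 32.80% and 72.84% with limits of 10 and 40 bp, and 50.0% without the crowded windows. The surplus of closer over farther gaps, 0.15 percentage points for ethanol and 0.68 for tamoxifen, moved to -1.92 and -1.52 at 330 to 400 bp. Both main values have intervals that include 0. Where the alternative does not itself set the change, the cause was not tested. Inside and kept shares were higher for ethanol than for tamoxifen gaps under 8 of 8 alternatives each, and the 2 intervals overlapped in all 8. The share of long gaps was 4.40 percentage points higher with tamoxifen (Wald interval 2.36 to 6.43), and 3.51 to 4.51 points higher under 7 alternatives, chosen after seeing the data. Cutting the tamoxifen list to the 1289694 calls of the ethanol list left the ratio of gaps at 0.988. All alternatives draw on 1 pair of lists. No paired analysis was possible because ethanol and tamoxifen have a single library each. Depth in reads is unknown and limits which nucleosomes are called.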

Other observations

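In 1 stretch of chromosome 8, strong calls and gaps recurred at a fixed distance. In a stretch of 100 kb whose ethanol gaps ran from 126055511 to 126145251, chosen after its values had been seen, strong calls of the ethanol list were most often 1700 bp apart, with 120 pairs in the 100 bp around that distance against a median of 32.5 pairs per 100 bp. In the tamoxifen list the distance was 1695 bp, with 99 pairs against 22.5. A further peak lay at 3395 and 3400 bp. The stretch held 48 ethanol gaps, of which 42 had another gap 1 or 2 such distances away within 30 bp, and 47 tamoxifen gaps, of which 40 did. The distance was read from strong calls that include the flanks of these gaps, so the recurrence of the gaps is in part built in. The share to be found among gaps this dense without a repeat is not given here. In all, 23 gaps were the same in both lists.

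The longest run of gaps that share flanks had 6 gaps in each list. With ethanol it lay on chromosome 18 between 13456071 and 13457981, with flank scores of 850.4 to 3213.8, where the tamoxifen list had 5 calls and 3 gaps. With tamoxifen it lay on chromosome 8 between 19976141 and 19978026, with scores of 747.9 to 2713.5, where the ethanol list had 8 calls and 5 gaps.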
